A study of Mus musculus with 8 samples.

Results

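The genes described here are 10 abundant transcripts of mouse lung ILC2s (group 2 innate lymphoid cells, which release type 2 cytokines without an antigen receptor): Lgals1 (galectin-1), the S100 genes S100a4, S100a6, S100a10 and S100a11, the intermediate filament gene Vim, the annexins Anxa1 and Anxa2, the LIM domain gene Crip1 and the actin binder gene Tagln2. They were chosen from these data, because several of them were lower with dopamine both in bulk RNA and in single cells. Their dopamine differences are therefore a description, with no test, and their direction is not a finding. The bulk table listed 55413 genes, of which 11222 passed the filter on low values, and the droplet data held 15083, of which 10559 were tested for dopamine. All 10 members passed both filters, and none was at 0 in any library or hashtag.

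The mice were wild type C57BL/6, and the sort took ILC2s from the lung. IL-33, the epithelial alarmin that activates these cells, was given through the nose over 3 days. In the bulk experiment all 6 libraries came from female mice given IL-33, 3 together with PBS and 3 together with dopamine, and each library held 2000 cells. In the single-cell experiment cells of male mice were marked with 8 antibody hashtags and run as a single droplet pool. In the cell table, PBS without IL-33 is the treatment of hashtags 1 and 2, IL-33 that of hashtags 3, 4 and 5, and the combination of IL-33 and dopamine that of hashtags 6, 7 and 8. The labels do not say that a hashtag is a separate mouse, so the spread between hashtags may be technical, and the ages of the mice are not given in the sources used here.

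These genes encode small, soluble or filament-forming proteins that link calcium, the membrane and the cytoskeleton. Galectin-1 is a secreted lectin that binds sugars on surface glycoproteins. S100 proteins are small calcium sensors that bind partners such as myosin and annexins, annexins attach to phospholipid membranes when calcium rises, and vimentin filaments give a moving cell its stiffness. In lymphocytes this set is known to be high in activated, memory and migrating cells and low in resting ones.

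In the mouse genome GRCm38 (mm10, GENCODE M21) the 10 protein-coding genes lie on 7 chromosomes. The 4 S100 genes share a stretch of 2.96 Mb on chromosome 3, where S100a4 (chr3:90603771-90606045) and S100a6 (chr3:90612882-90624181) are 6836 bp apart and S100a11 (chr3:93520488-93526287) and S100a10 (chr3:93555080-93564643) are 28792 bp apart. The others are Lgals1 (chr15:78926725-78930465), Vim (chr2:13573927-13582826), Anxa1 (chr19:20373428-20390944), Anxa2 (chr9:69453620-69491795), Crip1 (chr12:113146316-113153879) and Tagln2 (chr1:172500047-172507380). S100a4 overlaps the gene model Gm42674 on its own strand, Anxa2 overlaps Mir3109 and the antisense Gm16144, and Anxa1 overlaps 1500015L24Rik on the other strand, so part of their reads could have been counted elsewhere.

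RefSeq promoters (GRCm38.p6), which run from 250 bases before the start to 50 after it, matched 8 of the 10 members by symbol; Lgals1 and S100a10 are named only. The TATA box letters TATAAA, searched on both strands, were in 4 of the 8 (Vim, S100a4, Anxa1 and Anxa2), where 13.6% of all 32851 promoters in the table hold them. The AP-1 letters TGANTCA were in S100a11 and Anxa2 (7.81% of all promoters), the GC box letters GGGCGG in Tagln2, S100a11, Anxa2 and Crip1 (35.7%) and the GATA letters AGATAA in S100a11 and Crip1 (11.2%). The letters of the cAMP response element, TGACGTCA, were in none of the 8 and in 1.79% of all promoters. CACCC, the core of Kruppel-like factor sites, was in 4 (57.5%) and the E-box letters CANNTG in 4 (72.3%). Matches are a description of letters, not of bound sites. The 250 bases before the start are shown for 4 of the 5 members with TATA box or AP-1 letters, 5′ to 3′ on the plus strand, with TATA box, AP-1, GC box and GATA letters (either strand) in capitals. No capital run overlaps another of these motifs, and in Anxa2 the AP-1 letters share bases with a CACCC match. Their places are chr2:13574061-13574310 for Vim, chr3:90603520-90603769 for S100a4, chr3:93520246-93520495 for S100a11 and chr9:69453433-69453682 for Anxa2.
Vim: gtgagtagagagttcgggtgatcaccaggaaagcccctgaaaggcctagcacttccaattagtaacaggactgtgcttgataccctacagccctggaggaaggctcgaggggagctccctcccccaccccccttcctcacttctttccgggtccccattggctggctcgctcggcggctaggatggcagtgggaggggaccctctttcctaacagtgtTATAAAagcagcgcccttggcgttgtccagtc
S100a4: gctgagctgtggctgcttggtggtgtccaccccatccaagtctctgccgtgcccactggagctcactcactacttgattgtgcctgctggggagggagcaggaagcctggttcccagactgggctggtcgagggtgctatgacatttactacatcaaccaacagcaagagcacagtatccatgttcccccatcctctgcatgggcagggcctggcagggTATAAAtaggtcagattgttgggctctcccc
S100a11: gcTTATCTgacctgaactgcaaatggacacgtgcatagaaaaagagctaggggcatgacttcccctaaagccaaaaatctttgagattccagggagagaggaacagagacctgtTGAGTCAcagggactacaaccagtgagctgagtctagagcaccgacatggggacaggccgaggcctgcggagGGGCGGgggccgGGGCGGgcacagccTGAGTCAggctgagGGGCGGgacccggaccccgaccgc
Anxa2: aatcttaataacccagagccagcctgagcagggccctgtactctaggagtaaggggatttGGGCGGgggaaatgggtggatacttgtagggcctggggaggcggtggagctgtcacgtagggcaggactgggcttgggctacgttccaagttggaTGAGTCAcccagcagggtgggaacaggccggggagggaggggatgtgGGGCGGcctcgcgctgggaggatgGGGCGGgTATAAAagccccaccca
The TATA box begins 32 bases before the start in Vim, 31 in S100a4 and 17 in Anxa2. S100a11 has no TATA box letters in this window, but AP-1 letters 136 and 38 bases before the start and GC boxes between and beside them.

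In bulk ILC2s the 10 genes together made up 2.11% of all TPM (a length-corrected share of the reads, scaled to 1000000) with IL-33 plus PBS and 1.39% with IL-33 plus dopamine. Their summed level was 20333, 23442 and 19450.2 TPM in the PBS libraries and 14406, 13423 and 13732 TPM in the dopamine libraries, or 21075 ± 2096 against 13854 ± 503 TPM (SD, n = 3 each). All 3 dopamine libraries lay below all 3 PBS libraries. Lower RNA per cell and fewer cells that hold this RNA cannot be told apart in bulk samples. Each member was lower in the mean, and 9 of the 10 did not overlap between the groups, the contrast by which they were chosen; 6.57% of the 11222 tested genes were lower without overlap.

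Lgals1 had the largest log2 difference, with 2608, 3452 and 2852 TPM in PBS libraries 1 to 3 and 1756, 1623 and 1605 TPM in dopamine libraries 1 to 3. All 3 dopamine libraries were thus below the lowest PBS library. On the log2(TPM + 1) scale the difference was -0.83 ± 0.14 (SE). Because the median of all tested genes was 0.49 higher with dopamine in the deposited TPM, differences are also given relative to that median, here -1.32.

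Among the calcium sensors, S100a4, a partner of non-muscle myosin studied in cell motility, was at 1973, 2540.4 and 1741 TPM with PBS and 1629, 1149 and 1533 TPM with dopamine, a log2 difference of -0.53 ± 0.18. S100a6 (calcyclin) was at 1975, 2623 and 1919 TPM with PBS and 1534, 1455 and 1269 TPM with dopamine, a log2 difference of -0.60 ± 0.16. PBS library 2 was the highest in both genes, and the groups did not overlap. S100a10, which does not bind calcium and pairs with Anxa2, was at 1987, 2282 and 1931 TPM with PBS and 1489.9, 1649.8 and 1685 TPM with dopamine, a log2 difference of -0.36 ± 0.13. S100a11, a partner of Anxa1, was at 1382, 1384 and 1281 TPM with PBS and 871, 1091 and 1052 TPM with dopamine, a log2 difference of -0.43 ± 0.15. S100a10 and S100a11 had the smallest log2 differences of the 10.

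The annexins stood at different levels. Anxa2 was at 1384, 1421 and 996 TPM with PBS and 911, 798 and 689 TPM with dopamine, a log2 difference of -0.66 ± 0.18. Anxa1, a mediator that limits inflammation and the least abundant member, was at 274, 207 and 157 TPM with PBS and 159.9, 117 and 141 TPM with dopamine, a log2 difference of -0.58 ± 0.26. It was the only member whose groups overlapped, since dopamine library 1 was above PBS library 3.

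Of the cytoskeletal members, Vim was at 2966, 2341 and 1984 TPM with PBS and 1839, 1576 and 1624 TPM with dopamine, a log2 difference of -0.52 ± 0.16. Crip1, the most abundant member, was at 4465, 5808 and 5268 TPM with PBS and 3352, 3164 and 3302 TPM with dopamine, a log2 difference of -0.65 ± 0.12. Tagln2, which binds actin filaments and stabilizes the contact between T cells and antigen-presenting cells, was at 1320.0, 1384 and 1320.4 TPM with PBS and 865, 801 and 831 TPM with dopamine, a log2 difference of -0.69 ± 0.13. Its libraries lay close together within each group, at 1341 ± 36.8 and 832 ± 32.0 TPM (SD, n = 3 each).

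**Figure D1:**
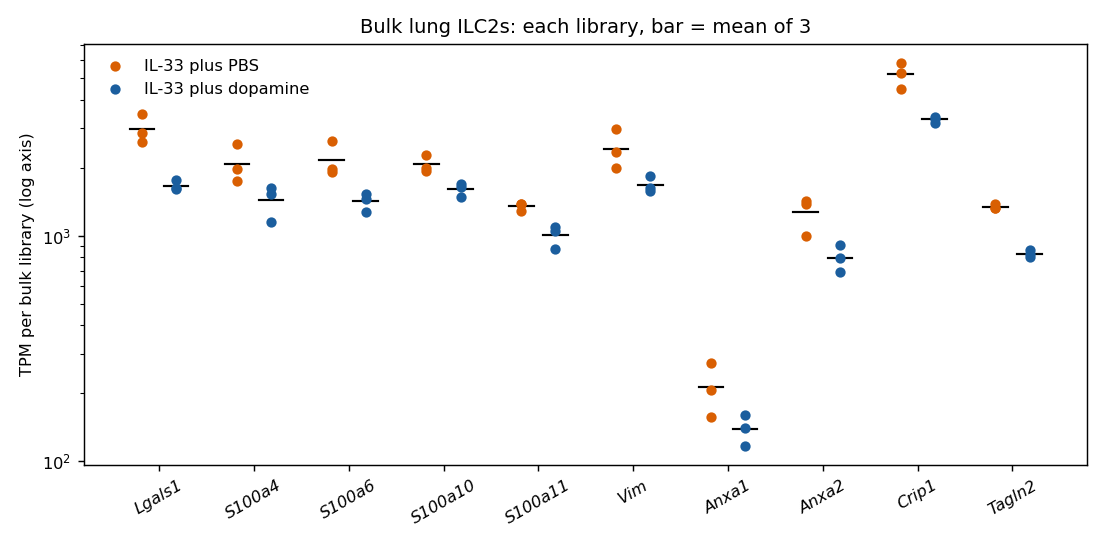
TPM of the 10 genes (log axis) in each bulk library of IL-33 plus PBS (orange) and IL-33 plus dopamine (blue), with the mean of 3 libraries as a black bar. Every gene but Anxa1 has its 3 dopamine libraries below its 3 PBS libraries.

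The members' differences have to be read against other abundant genes. The 10 members rank between 48 and 646 in mean TPM, and the 646 genes at least as abundant as Anxa1 had a median relative difference of -0.69, with 37.3% of them lower without overlap. Over the 10 members the relative differences ran from -1.32 (Lgals1) to -0.85 (S100a10), with a median of -1.09. Quantile normalization, which gives every library the same distribution of values, reduced them to between -0.68 (Anxa1) and -0.17 (S100a10), with a median of -0.47. After it 7 members were without overlap, and the share of all tested genes without overlap was not counted for this setting. Genes with TPM of at least 1 numbered 11384, 9822 and 10525 with PBS and 11502, 11529 and 11745 with dopamine. The groups thus did not overlap in this number, and its part in the members' differences was not tested. PBS library 2 had the fewest of these genes. Without it the relative differences ran from -1.03 to -0.60. Leaving it out keeps the PBS libraries below the dopamine libraries in that number.

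In single cells, UMI counts (unique molecules) were summed per hashtag and scaled to a total of 1000000 (CPM). The 10 genes summed to 4674 and 5662 CPM in PBS hashtags 1 and 2, to 8257, 6325 and 7489 CPM in IL-33 hashtags 3 to 5, and to 5337, 6893 and 4782 CPM in IL-33 plus dopamine hashtags 6 to 8. Hashtag 7 was above hashtag 4, so the groups overlapped, while hashtags 6 and 8 lay within the range of the PBS hashtags. All 10 members had a negative log2 difference between IL-33 plus dopamine and IL-33 in the edgeR fit, from -0.66 to -0.10 with a median of -0.34, where the median of all tested genes was 0.00. The median was -0.54 without hashtag 7 and -0.22 without hashtag 3. Only Tagln2 was lower without overlap, and 6.93% of all tested genes were. Without hashtag 7, 8 of the 10 did not overlap, and 12.7% of all tested genes. Without hashtag 4 it was 8 as well, and 12.5% of all tested genes.

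Lgals1 was at 310 and 461 CPM with PBS, 802, 551 and 677 CPM with IL-33 and 389.7, 585 and 315 CPM with IL-33 plus dopamine. Its log2 difference between the last 2 groups was -0.66 ± 0.19 (SE), again the largest of the 10. S100a6 followed with 401 and 582 CPM, then 917, 639 and 827 CPM, then 457, 712 and 413 CPM, a log2 difference of -0.59 ± 0.18. In both genes hashtag 7 lay within the IL-33 group and hashtags 6 and 8 below it.

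Vim was at 465 and 495 CPM with PBS, 933, 689 and 868 CPM with IL-33 and 554, 704 and 492 CPM with IL-33 plus dopamine, a log2 difference of -0.51 ± 0.13. Crip1 was at 472 and 559.8 CPM, then 953, 778 and 878 CPM, then 581, 837 and 525 CPM, a log2 difference of -0.43 ± 0.14. S100a11 was at 299.8 and 393 CPM, then 677, 468 and 569 CPM, then 411, 573 and 346 CPM, a log2 difference of -0.37 ± 0.16. As for Lgals1, hashtag 3 was highest and hashtag 8 lowest among the IL-33 exposed hashtags in these 3 genes.

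S100a4 was at 1095 and 1443 CPM with PBS, 1614, 1223 and 1484 CPM with IL-33 and 1109, 1438 and 958 CPM with IL-33 plus dopamine, a log2 difference of -0.30 ± 0.13. S100a10 was at 905 and 941 CPM, then 1402, 1148 and 1286 CPM, then 1115, 1212 and 989 CPM, a log2 difference of -0.21 ± 0.08. Tagln2 was at 638 and 669 CPM, then 789, 709.5 and 753 CPM, then 593, 674 and 628 CPM, a log2 difference of -0.25 ± 0.08. For Tagln2, hashtags 6 and 8 were under both PBS hashtags. Single hashtags moved some of these differences by over 1.5 times. Without hashtag 7, S100a4 was at -0.48, S100a11 at -0.59 and Crip1 at -0.65. Without hashtag 3, S100a10 was at -0.14 and S100a11 at -0.23, and without hashtag 8, S100a4 was at -0.20 and S100a11 at -0.24.

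The annexins carried the least UMIs and showed the smallest differences. Anxa1 was at 55.1 and 73.2 CPM with PBS, 80.3, 69.2 and 86.4 CPM with IL-33 and 75.8, 71.6 and 72.4 CPM with IL-33 plus dopamine, a log2 difference of -0.10 ± 0.09. Anxa2 was at 33.6 and 44.7 CPM, then 90.5, 51.0 and 60.8 CPM, then 51.6, 87.0 and 45.1 CPM, a log2 difference of -0.15 ± 0.24. The sign of the Anxa2 difference turned to 0.13 without hashtag 3, and that of Anxa1 to 0.03 when cells were thinned to 2500 UMIs. The bulk log2 differences of -0.58 (Anxa1) and -0.66 (Anxa2) stand on another scale and come from mice of the other sex, and whether the experiments differ was not tested.

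**Figure D2:**
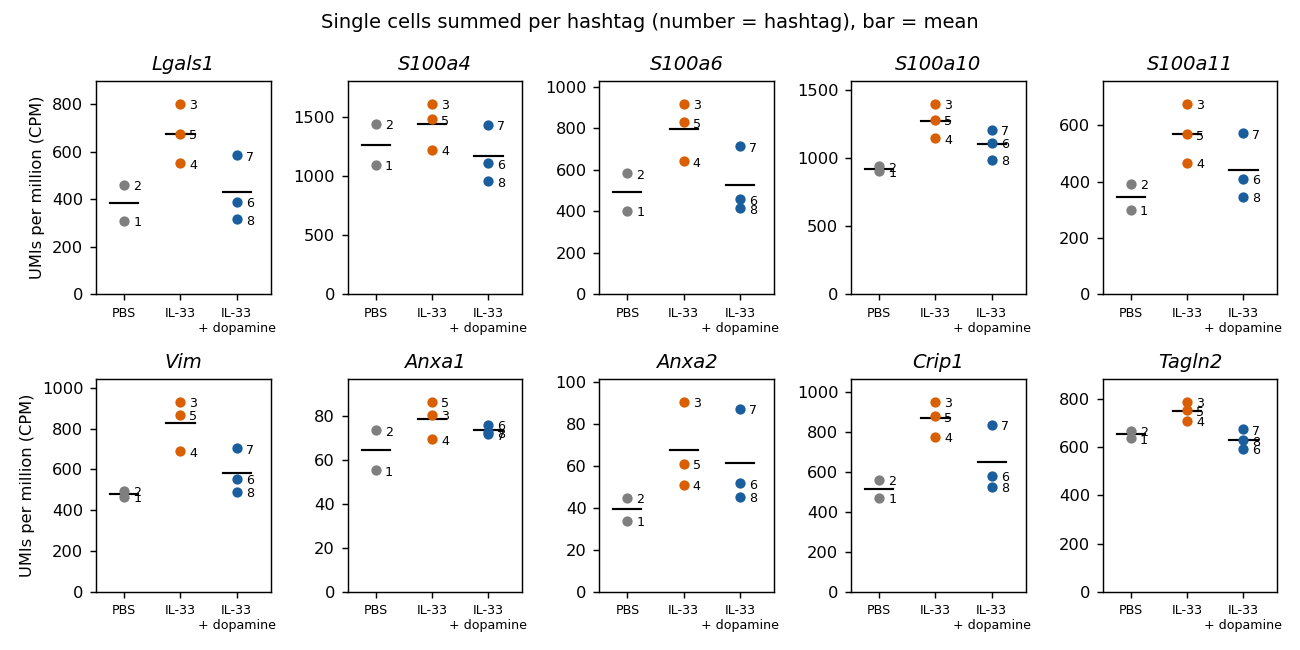
Level (CPM) of each gene in each hashtag (linear axes from 0, number beside a point = hashtag) for PBS (grey, 2 hashtags), IL-33 (orange, 3) and IL-33 plus dopamine (blue, 3), with group means as black bars. Hashtag 7 lies well above hashtags 6 and 8 for most genes, and Tagln2 is the only gene whose dopamine hashtags are all below its IL-33 hashtags.

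Depth went with these values in part. The median cell held 5692 UMIs in hashtag 3 and 5231 in hashtag 7, the hashtags with the highest summed level in their groups, and 4201 in hashtag 8, with the lowest of the exposed hashtags. Hashtags 4, 5 and 6, however, had nearly the same depth (4872, 4859.5 and 4875) at sums of 6325, 7489 and 5337 CPM, and PBS hashtags 1 and 2 had 4330.0 and 4317.5 at 4674 and 5662 CPM. The part of depth in the result was not tested. When only cells between the 10th and 90th percentile of UMIs (3347 to 8074) were kept, the median difference of the 10 members was -0.22, ranging from -0.44 to 0.06. With all cells thinned to 2500 UMIs it was -0.30, from -0.58 to 0.03.

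The summed UMIs of the 10 genes per cell, after thinning to 2500 UMIs, show whether a few cells or most of them carry the values. The median cell held 10 and 12 of these UMIs in the PBS hashtags, 16, 12 and 14 in IL-33 hashtags 3 to 5 and 10, 13 and 10 in IL-33 plus dopamine hashtags 6 to 8. The cell at the 90th percentile held 22 and 26.5, then 35, 28 and 33, then 23, 29 and 22. At the 10th percentile the values were 4 and 5, then 6, 4 and 5, then 4, 6 and 4. The IL-33 and the IL-33 plus dopamine hashtags overlapped at all 3 percentiles, with hashtag 7 above hashtag 4 each time. The values at the 10th percentile are too small to show a difference of this size. Without thinning the medians were 17 and 21, then 35, 24 and 27, then 20, 27 and 16 UMIs. Thinning left out 15 PBS cells, 27 IL-33 cells and 42 IL-33 plus dopamine cells that held fewer than 2500 UMIs.

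**Figure D3:**
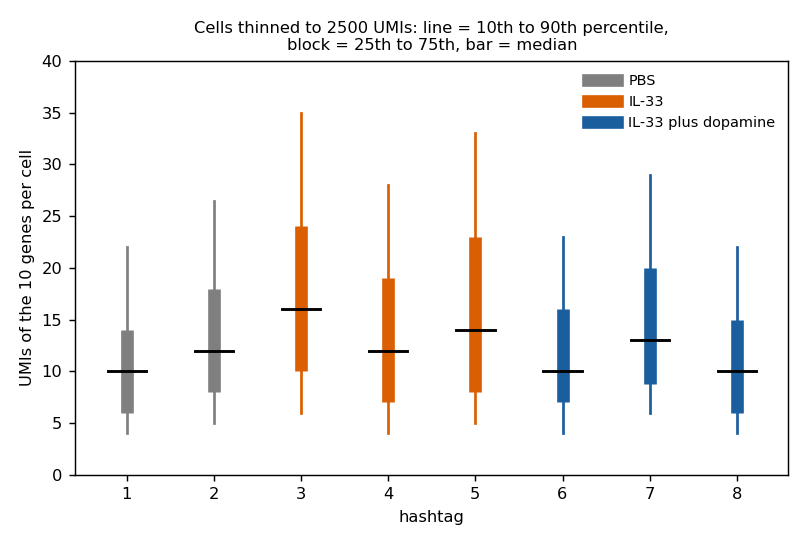
Summed UMIs of the 10 genes per cell in each hashtag, after each cell was thinned to 2500 UMIs; the thin line runs from the 10th to the 90th percentile, the block from the 25th to the 75th and the black bar is the median. The upper ends of hashtags 3, 4 and 5 (35, 28 and 33) and of hashtag 7 (29) reach higher than those of hashtags 6 and 8 (23 and 22).

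The members tended to be high in the same cells. Of the 45 pairs of members, 42 had a positive Spearman correlation over cells in all 8 hashtags, with a median of 0.186 over pairs. Lgals1 and S100a6 were the closest pair, with a median over hashtags of 0.349, and Anxa1 and Anxa2 the least close, at 0.038. Within hashtag and cluster the median over pairs was 0.098. These are descriptions of sparse counts from a shared library, where cells of the same depth were compared. Pairs of other abundant genes were not compared, so whether the members go together more than such pairs was not tested.

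The level of the members differed between the deposited clusters. In all 10 genes clusters 1 and 5 had the highest levels of the 6 clusters, a pattern noted after the values were seen. As the mean of 8 hashtags, Lgals1 was at 971 CPM in cluster 1 and 1034 CPM in cluster 5, and at 209.7 to 345 CPM in the other 4. S100a6 was at 1257 and 1116 CPM against 281 to 408 CPM. Anxa2 was at 91.1 and 129.8 CPM against 30.7 to 37.0 CPM, and Crip1 was at 1078 and 1518 CPM against 356 to 569 CPM. Tagln2 differed least, with 934 and 809 CPM against 535 to 624 CPM. The clusters were made from these genes among others, so the levels describe the clusters and are not tested. Cluster 5 held 8 and 23 cells of the PBS hashtags, so its PBS values are the least precise.

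**Figure D4:**
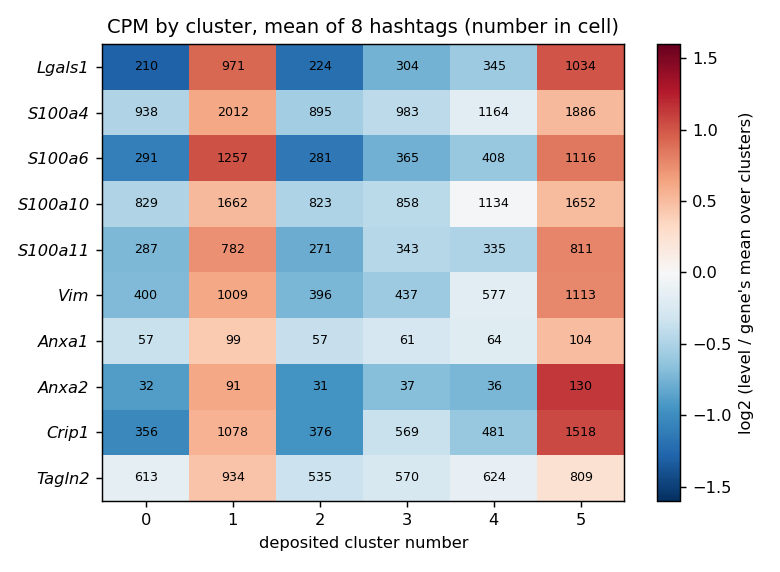
Level of each gene (rows) in the 6 deposited clusters (columns), as the mean CPM of 8 hashtags (number in each cell), with colour showing log2 of that level over the gene's mean across clusters. Clusters 1 and 5 are above the other 4 in all 10 rows.

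Within clusters the dopamine difference was smaller, with a median over members of -0.08 when the 6 clusters were weighted equally. Of the 60 combinations of gene and cluster, 43 had a lower mean with IL-33 plus dopamine than with IL-33, but 5 were lower without overlap (Lgals1, S100a4, Vim and Tagln2 in cluster 5, and Tagln2 in cluster 4) and 1 was higher without overlap (Anxa1 in cluster 0). Over all 10559 tested genes, 5.11% of such combinations were lower and 6.27% higher without overlap. In cluster 5, Vim was at 1395 ± 89.1 CPM with IL-33 and 1103 ± 61.8 CPM with IL-33 plus dopamine (SD, n = 3 hashtags each), Lgals1 at 1265 ± 92.6 and 993 ± 109 CPM, and S100a4 at 2079 ± 154 and 1745 ± 128 CPM. S100a10 went the other way there, at 1619 ± 113 CPM with IL-33 and 1966 ± 347 CPM with IL-33 plus dopamine, and Anxa2 did too, at 122.8 ± 25.2 and 168 ± 50.3 CPM. The mean differences in cluster 5 thus ran in both directions. In hashtags 6 to 8 of IL-33 plus dopamine, however, cluster 5 held only 84, 170 and 26 cells. S100a10 was at 1895, 1659 and 2342 CPM in them and Anxa2 at 110, 191 and 202 CPM. Both were highest in hashtag 8, which had the fewest cells. The lower values of Vim, Lgals1, S100a4 and Tagln2 rest on the same cells, so all cluster 5 means with dopamine are imprecise. In cluster 1 the means lay closer, with Lgals1 at 1013 ± 129 and 906 ± 112 CPM.

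Clusters 1 and 5 held 10.9% and 26.3% of the cells of PBS hashtags 1 and 2, 48.2%, 36.7% and 39.0% of IL-33 hashtags 3 to 5, and 22.4%, 35.8% and 13.4% of IL-33 plus dopamine hashtags 6 to 8. Since the members helped to define the clusters, a change in their RNA and a change in cluster membership cannot be told apart. For an exchange of shares and levels, each cluster was weighted by its share of UMIs, not of cells. Clusters 1 and 5 held 55.8%, 39.6% and 43.1% of the UMIs of IL-33 hashtags 3 to 5. In IL-33 plus dopamine hashtags 6 to 8 they held 27.3%, 41.1% and 12.5%. With the IL-33 levels of each cluster kept and only these shares taken from the dopamine hashtags, the median log2 difference was -0.30. Over the members it ran from -0.42 to -0.14. With the cluster shares of IL-33 kept and the levels taken from the dopamine hashtags, the median was -0.09, from -0.24 (Lgals1) to 0.31 (Anxa2), and S100a10, Anxa1 and Anxa2 were above 0. Rebuilt in the same way with both the shares and the levels of each group's own hashtags, the median was -0.34. The exchange of shares was added once the cluster levels had been seen.

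**Figure D5:**
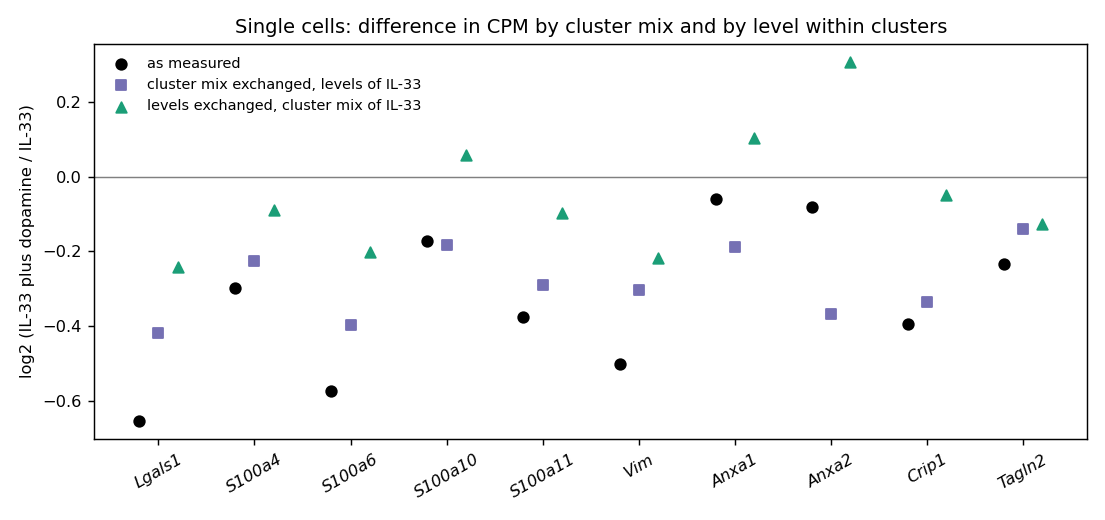
Log2 ratio of IL-33 plus dopamine over IL-33 for each gene. Black circles, marked as measured, are rebuilt from each group's own mean cluster shares and levels. They differ from the edgeR values, such as -0.08 against -0.15 for Anxa2. Purple squares take only the cluster shares of UMIs from the dopamine hashtags, and green triangles only their levels within clusters. The purple squares lie below 0 in all 10 genes, and the green triangles of S100a10, Anxa1 and Anxa2 lie above it.

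The comparison that the choice of members did not use is IL-33 exposure: the mean of the IL-33 and the IL-33 plus dopamine hashtags against PBS without IL-33, which is balanced over the dopamine difference. No member passed in edgeR's quasi-likelihood test with Benjamini-Hochberg adjustment, and none in DESeq2, with adjusted p from 0.414 to 1.0 in edgeR. Of the 10 members, 5 had an unadjusted p under 0.05, all higher with IL-33 (Anxa2, Crip1, Vim, S100a11 and S100a10). Over all 10820 genes tested, 0% passed in edgeR, 936 (8.65%) had an unadjusted p under 0.05, and 7 passed in DESeq2. With 2 PBS hashtags, of 311 and 748 cells, the precision was low.

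Anxa2 had the largest log2 difference with IL-33 exposure, 0.63 ± 0.29 (SE; edgeR adjusted p = 0.567), with all 6 exposed hashtags above both PBS hashtags. Crip1 was 0.50 ± 0.14 higher (edgeR adjusted p = 0.436) and Vim 0.50 ± 0.13 higher (edgeR adjusted p = 0.414), but hashtag 8 was below a PBS hashtag for each of them. S100a11 was at 0.49 ± 0.17, Lgals1 at 0.43 ± 0.20 and S100a6 at 0.35 ± 0.19. S100a10 differed by 0.33 ± 0.08 (edgeR adjusted p = 0.414), with its 6 exposed hashtags at 989 to 1402 CPM and PBS at 905 and 941 CPM. Anxa1 was at 0.17 ± 0.12, Tagln2 at 0.04 ± 0.08 and S100a4 at -0.01 ± 0.14. The PBS hashtags weighed on these values: the median over the members, 0.39, was 0.25 without hashtag 1 and 0.59 without hashtag 2. Lgals1 was at 0.20 and 0.76, S100a6 at 0.12 and 0.65 and Anxa1 at 0.02 and 0.43 without hashtags 1 and 2, and S100a11 at 0.33 without hashtag 1. S100a6 was at 0.21 without hashtag 7. In cells between the 10th and 90th percentile of UMIs the median was 0.15, with Lgals1 and S100a6 at 0.08 each, and as the mean of cluster differences it was 0.16. S100a10 and Anxa2 were the members higher without overlap, and 8.85% of all tested genes were.

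The exposed groups lay apart from PBS to unequal degrees, as far as groups that share the PBS hashtags can be set side by side. IL-33 over PBS had a median of 0.66 over the members with 10 above 0, and IL-33 plus dopamine over PBS a median of 0.17 with 8 above 0. For Lgals1 the values were 0.76 ± 0.22 and 0.11 ± 0.22, for Vim 0.75 ± 0.14 and 0.24 ± 0.14, and for Tagln2 0.16 ± 0.08 and -0.08 ± 0.08. They follow from the same hashtags as the dopamine difference and add no test of it.

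Of 75 relatives and partners of the members, none passed in either dopamine comparison. In bulk, limma passed 0 of the 53 tested, in a table where 0.0356% of genes passed, and 17 had an unadjusted p under 0.05, 8 lower and 9 higher, where 24.1% of all tested genes did. In single cells, edgeR and DESeq2 each passed 0 of the 49 tested, where edgeR passed 0.0284% of all genes, and 2 had an unadjusted p under 0.05, both lower, where 9.47% of all tested genes did. The median relative difference of the relatives was -0.43 in bulk, and their median difference was -0.08 in single cells. With IL-33 exposure 0 of 50 passed in edgeR and in DESeq2. In edgeR 9 had an unadjusted p under 0.05, all higher, where 8.65% of all tested genes had such a p in either direction.

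By family, 2 of 6 tested galectins and their ligands, 1 of 4 other S100 genes, 2 of 6 other annexins, 2 of 10 filament and LIM relatives and 8 of 27 actin and membrane partners were lower without overlap in bulk, and 1, 0, 2, 1 and 6 were higher. Over all tested genes 6.57% were lower and 23.5% higher without overlap. Of the 646 genes at least as abundant as Anxa1, 37.3% were lower without overlap, and the families were not matched for abundance. The following were picked after their values were seen, and none passed. Lgals3 (galectin-3) was at 485, 448 and 307 TPM with PBS and 306, 389 and 286 TPM with dopamine, with overlap. S100a13 was at 228, 201 and 194 TPM with PBS and 112, 109 and 155 TPM with dopamine, without overlap. Anxa6 went the other way, at 264, 128 and 235 TPM with PBS and 372, 299.9 and 354 TPM with dopamine. Members of the same families were thus found on both sides in bulk, while in single cells Anxa6 was at 136, 109 and 126 CPM with IL-33 and 107, 122 and 104 CPM with IL-33 plus dopamine.

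The genes whose pattern was most like that of the members, over 47 sums of hashtag and cluster with at least 20 cells each, were Sh3bgrl3 (Pearson r = 0.931), Ahnak (0.925), Capg (0.913), Tmsb4x (0.899), Txn1 (0.898), Ucp2 (0.889), Serpinb6a (0.887) and Gm2a (0.886), out of 2497 genes with mean CPM of at least 50. The sums share a library and overlap in hashtag and cluster, so r is a description. Of the members, Lgals1 followed the mean of the members most closely (0.975) and Anxa1 least (0.786). The level of Ahnak, a large scaffold that binds the pair of S100a10 and Anxa2, was 825 CPM in cluster 1 and 764 CPM in cluster 5, against 392 to 533 CPM in the others. Tmsb4x, which sequesters actin monomers, was at 17971 and 16774 CPM there, against 12721 to 14006 CPM in the others.

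The sorted cells carried their defining transcripts: Gata3 was at 306 to 456 TPM in the PBS libraries, 272 to 473 TPM in the dopamine libraries and 769 to 1116 CPM in the hashtags, and all 11 genes of an ILC2 list were in both tables. Not all of the 11 were alike between the bulk groups. With dopamine 1 was lower without overlap (Arg1) and 3 were higher (Rora, Il7r and Thy1). Over all tested genes 6.57% were lower and 23.5% higher without overlap. The members are also abundant in fibroblasts and myeloid cells. Of 7 fibroblast genes, 6 were listed at 0 in every bulk library, the list summed to 0 TPM in each PBS library and to at most 2.6 TPM with dopamine, and none of the 7 was in the single-cell table. Of 7 macrophage and monocyte genes, Fcgr1 was listed at 0 in every bulk library, and the list summed to 11.5 to 144 TPM with PBS and 1.29 to 407 TPM with dopamine. In the hashtags the 2 macrophage genes present summed to at most 3.4 CPM. The neutrophil list summed to 7.41 to 31.6 TPM with PBS and 0 to 11.6 TPM with dopamine, with S100a8 and Ly6g at 0 in every library. Basophil and mast cell genes summed to 59.6 to 269 TPM with PBS and 108 to 174 TPM with dopamine. Dendritic cell genes, mostly H2-Ab1, summed to 221 to 373 and 270 to 567 TPM. For endothelium the sums were 8.71 to 31.4 and 23.8 to 35.9 TPM. The sums of lung epithelium genes did not overlap, at 5.8 to 8.44 and 15.5 to 34.1 TPM, but they do not describe the list. With PBS the sum was Epcam alone, and Epcam was at 15.5, 8.87 and 15.4 TPM with dopamine. Krt19 was above 0 only in dopamine library 2 (25.3 TPM) and Sftpc only in dopamine library 3 (4.93 TPM). In the same list Scgb1a1 was at 0 in bulk and at 73.4 to 102 CPM in the hashtags.

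Some lymphocyte lists differed between the bulk groups in their sums, without a test. The 4 B cell genes overlapped, at 26.8 to 52.9 TPM with PBS and 45.1 to 72.5 TPM with dopamine. The 7 T cell genes summed to 185 to 364 TPM with PBS and 428 to 923 TPM with dopamine, with Cd8a at 0 in 5 of 6 libraries. The 6 genes of NK cells and ILC1s summed to 6.04 to 42.5 TPM and 95.7 to 177 TPM, and the 4 ILC3 genes to 10.9 to 62.2 TPM and 85.0 to 173 TPM. In single cells the T cell list went the other way, at 113 to 132 CPM with IL-33 and 57.4 to 67.9 CPM with IL-33 plus dopamine, led by Cd3g, which edgeR called lower there (log2 difference -1.07, adjusted p = 0.0014). The sum of 6 proliferation genes was lower with dopamine in bulk, at 244 to 501 TPM against 86.1 to 189 TPM. Most of this sum was Stmn1 in every library. Of the 6, 3 were lower without overlap (Stmn1, Birc5 and Ccnb1), where 6.57% of all tested genes were. The groups overlapped for Mki67, Top2a and Cdk1, so the sum does not describe all 6 genes. Mki67 was at 8.48, 2.89 and 2.09 TPM with PBS and 6.29, 2.69 and 5.13 TPM with dopamine. In single cells the 6 genes summed to 50.8 to 63.8 CPM with IL-33 and 27.0 to 52.2 CPM with dopamine added, again with hashtag 7 highest of the latter. The part of these lists in the members' differences was not tested.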

How the data were processed

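Bulk TPM were made by the authors from Smart-Seq2 libraries, and deposited UMI counts came from a droplet library; per the submitters' processing notes the tools include cutadapt 2.10, STAR 2.7.5c, RSEM 1.3.3, Cell Ranger 6.1.1 and Seurat 4.0.2 on mm10, settings not stated. The deposited cell table gives each of 9076 cells its hashtag, treatment and cluster, and the percent of its UMIs in mitochondrial genes (medians per hashtag 3.99 to 4.25). The members and gene lists were chosen with earlier results of these data known; all members are named, and relatives would be named where they passed.

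The bulk filter kept genes that reached a TPM of 1 in 3 or more libraries, and these were tested with limma 3.58.1 (trend) on log2(TPM + 1), a scale that understates the change of low genes; TPM carry no read counts, so their depth is unknown. UMIs were summed per hashtag (1397576 to 9268932 in total) and analysed in edgeR 4.0.16 (filterByExpr, TMM scaling, quasi-likelihood test), with DESeq2 1.42.0 as an alternative, in R 4.3.3. P-values were adjusted by Benjamini-Hochberg over all tested genes, with a threshold of 0.05. Members have p-values only for IL-33 exposure. Both scripts were tested on simulated data. No doublet caller was run, and the sources used here do not say how doublets were handled. Other scalings, filters, thinned cells and left-out libraries or hashtags were tried. RefSeq proteins were not used here.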

Additional observations from a re-analysis of the deposited data

How the results depend on the processing

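The number of genes limma passed in bulk, 4, became 2 with a pseudocount of 5 or a filter on mean TPM of at least 5, 0 with no filter, 2800 with array weights and 21 after quantile normalization; leaving out single libraries gave 0 to 1383. With the replicate block it was 15; the labels do not pair the libraries, and equally numbered libraries correlated at 0.0186, -0.0710 and -0.00177. For dopamine in single cells edgeR passed 3 genes, against 26 with DESeq2, 9 for cells between the 10th and 90th percentile of UMIs and 6 for thinned cells; leaving out single hashtags gave 1 to 16. For IL-33 exposure 0 genes became 7 with DESeq2 and 0 to 43 with single hashtags left out (2 without hashtag 1, 43 without hashtag 8), and no member passed in any of these. Members lower without overlap in single cells were 3 instead of 1 for the middle range of UMIs, and 1 to 8 with single hashtags left out (8 without hashtag 4 or 7). The share of all tested genes was not counted for the middle range. It was 6.93% with all hashtags, 12.5% without hashtag 4 and 12.7% without hashtag 7. In bulk no member changed sign in 140 alternatives (10 members, 14 settings). The members were chosen as lower in these same libraries, so the unchanged sign adds no support for it.

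Signs turned for a few small values. With dopamine, S100a10 became 0.0066 as the mean of cluster differences and 0.0564 at the IL-33 cluster shares. Anxa1 became 0.0585 in the middle range of UMIs, 0.0282 in thinned cells, 0.12 as the mean of cluster differences and 0.10 at the IL-33 shares. Anxa2 became 0.13 without hashtag 3, 0.0066 without hashtag 8, 0.27 as the mean of cluster differences and 0.31 at the IL-33 shares. With IL-33 exposure, S100a4 became 0.0144 without a filter and 0.21, 0.0471, 0.0199 and 0.0434 without hashtags 2, 4, 6 and 8, and Tagln2 became -0.0281 in the middle range of UMIs and -0.0003 as the mean of cluster differences. The cause was not tested. Groups of 2 and 3 limit the precision throughout.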
